A study of Mus musculus with 24 samples.

Results

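The genes described here are 10 mesoderm transcription factors, T, Eomes, Mixl1, Mesp1, Tbx6, Hand1, Hand2, Foxf1, Msx2 and Twist1, among the 24016 genes of an RNA-seq table. They were taken by symbol, and each of the 10 has 1 row. The cells are female mouse embryonic stem (ES) cells of the line 16.7 Tsix +/TST, a hybrid line in which reads can be assigned to a mus or a cas allele. The WT group is this parental line. The KO group is a knockout of the histone H3 lysine 9 methyltransferase G9a (gene symbol Ehmt2) made in it, so both groups carry the Tsix +/TST genotype. Cells were taken undifferentiated (day 0) or on day 10 after withdrawal of LIF, with 4 days in suspension and 6 days on gelatinized plates, and received no other treatment. Total RNA depleted of ribosomal RNA was sequenced in 3 libraries for each line and day (12 in all), and 1 H3K9ac ChIP sample was available per line and day. The labels number the 12 RNA libraries separately but do not say whether they came from separate cultures or how many knockout clones were used, so p-values measure only the spread between these libraries.

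When ES cells are released from pluripotency, WNT, NODAL, BMP and FGF signals can start the program of the primitive streak, the structure through which mesoderm forms in the embryo. T and Eomes (T-box factors), Mixl1 (a homeobox factor) and Mesp1 (a basic helix-loop-helix factor) act in the streak and in nascent mesoderm, and Tbx6 directs cells to a paraxial, somite-forming fate. Hand1, Hand2 and Foxf1 act in lateral, extraembryonic and cardiac mesoderm, while Msx2, a target of BMP signaling, and Twist1 act in mesenchyme. G9a places mono- and dimethyl groups on histone H3 lysine 9, marks linked to silent genes, and acetylation of the same residue (H3K9ac) marks active promoters.

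Promoters of 7 members could be matched by symbol in RefSeq promoters of the assembly GRCm38.p6; Mixl1, Hand1 and Foxf1 were the others. The 250 bases upstream of the start are shown for 4 of them: T and Msx2, which rose in both lines, and Tbx6 and Twist1, which passed the test in neither. Capitals mark CG dinucleotides. They lie at chr17:8434173-8434422 (T, + strand), chr13:53472781-53473030 (Msx2, - strand), chr7:126781233-126781482 (Tbx6, + strand) and chr12:33957421-33957670 (Twist1, + strand).
T: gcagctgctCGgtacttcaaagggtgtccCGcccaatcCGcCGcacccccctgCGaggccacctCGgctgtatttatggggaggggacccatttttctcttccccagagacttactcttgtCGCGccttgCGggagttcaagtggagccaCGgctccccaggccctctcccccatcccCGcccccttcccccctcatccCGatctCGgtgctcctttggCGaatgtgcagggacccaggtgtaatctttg
Msx2: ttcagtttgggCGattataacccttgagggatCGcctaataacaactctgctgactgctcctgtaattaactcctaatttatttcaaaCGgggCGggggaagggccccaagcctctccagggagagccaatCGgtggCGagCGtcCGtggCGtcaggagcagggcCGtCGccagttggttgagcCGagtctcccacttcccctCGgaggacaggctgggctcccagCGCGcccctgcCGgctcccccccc
Tbx6: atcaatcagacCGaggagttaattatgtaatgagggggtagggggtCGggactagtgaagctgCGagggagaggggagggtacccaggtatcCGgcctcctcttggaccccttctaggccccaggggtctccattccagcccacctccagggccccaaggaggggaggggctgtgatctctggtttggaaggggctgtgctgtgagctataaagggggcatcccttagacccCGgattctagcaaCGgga
Twist1: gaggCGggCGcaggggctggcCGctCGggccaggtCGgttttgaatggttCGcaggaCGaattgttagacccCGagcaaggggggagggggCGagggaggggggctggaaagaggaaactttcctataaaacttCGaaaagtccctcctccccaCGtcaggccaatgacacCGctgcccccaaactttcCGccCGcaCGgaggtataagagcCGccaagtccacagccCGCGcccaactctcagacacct
The printed stretches hold 14 CG pairs for T, 16 for Msx2, 6 for Tbx6 and 18 for Twist1. Over the full 300-base windows, which run from 250 bases before to 50 bases after the start, the counts were 17 for T, 22 for Msx2, 7 for Tbx6 and 27 for Twist1. The counts were 10 for Eomes, 4 for Mesp1 and 17 for Hand2, against a median of 7.00 over 32851 promoters of that length. T and Msx2, the genes with a matched promoter that rose, lay above that median, and the 5 others ranged from below to above it. The letters TATAAA, searched on both strands, stood 43 bases before the start of Tbx6 and 126 bases before that of Twist1, and 13.6% of all promoters hold them. CTTTGAT, the core recognized by TCF/LEF factors, occurred among the 7 only in Mesp1, 31 bases before its start (3.73% of all promoters). AGGTGTG, a T-box core, also occurred only in Mesp1, beginning 6 bases past the start (5.84% of all promoters). The E-box pattern CANNTG, the binding core of basic helix-loop-helix factors, occurred in T, Mesp1, Hand2 and Msx2, and 72.3% of all promoters hold it. Such matches describe letters and are not measured binding sites.

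Values are reads per gene that the authors scaled to a common total, called scaled reads below. Recovered read totals were 21087157 to 30527844 in 3 day 0 libraries (WT replicate 3, KO replicates 2 and 3) and 2081129 to 4220140 in the other 9. The 3 deep libraries also held less of the ribosomal Rn45s transcript, 0.115 to 0.129% of reads against 14.8 to 25.1% in the other 9. Reads of olfactory and vomeronasal receptor genes, a measure of background, were counted as a share of reads other than Rn45s. They made up 0.107 and 0.109% in KO day 0 replicate 1 and WT day 10 replicate 3 and 0.00311 to 0.0377% elsewhere. Ehmt2 read 1155 ± 199 scaled reads in WT at day 0, against 458 ± 92.1 in KO (SD, n = 3 each), without overlap. At day 10 it read 1125 ± 353 and 629 ± 129 (SD, n = 3 each), and 1 KO library lay above the lowest WT library. The summed level of 14 pluripotency genes was 27106 to 47937 scaled reads in the 6 day 0 libraries, with no gene of the list at 0. At day 10 that sum was 3903 to 7998 in WT, against 12497 to 15256 in KO, without overlap.

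From day 0 to day 10 all 10 members had a higher fitted level in both lines. The share of all genes with a higher fitted level at day 10 was not counted. In WT 5 of 10 rose, T, Hand1, Msx2, Foxf1 and Mixl1, by limma with Benjamini-Hochberg adjustment at 0.05 over 20624 genes, against 2.02% of all genes tested that rose, and none fell (2.40% of all genes). In KO 4 of 10 rose, the same genes without Mixl1, against 2.43% of all genes, and none fell (6.46%). The members were chosen with earlier results of these data known, so these counts beside all genes are a description and not a test of the set. The median change of the members was 3.06 on the log2 scale in WT, with -0.20 over all genes, and 3.25 in KO, with -0.68 over all genes. Libraries of the 2 days did not overlap for 3 of 10 members in WT (6.63% of all genes, higher) and for 9 of 10 in KO (8.93%). Fold changes here are on the scale of log2(scaled reads + 1). For low genes and libraries without a read they can differ from the ratio of group means in either direction. Over the 10 days Twist1 in WT had a fold change of 3.35 beside a ratio of means of 1.80. Hand1 in KO had 63.1 beside 69.9. In bulk RNA fewer expressing cells cannot be told apart from less RNA per cell.

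**Figure D1:**
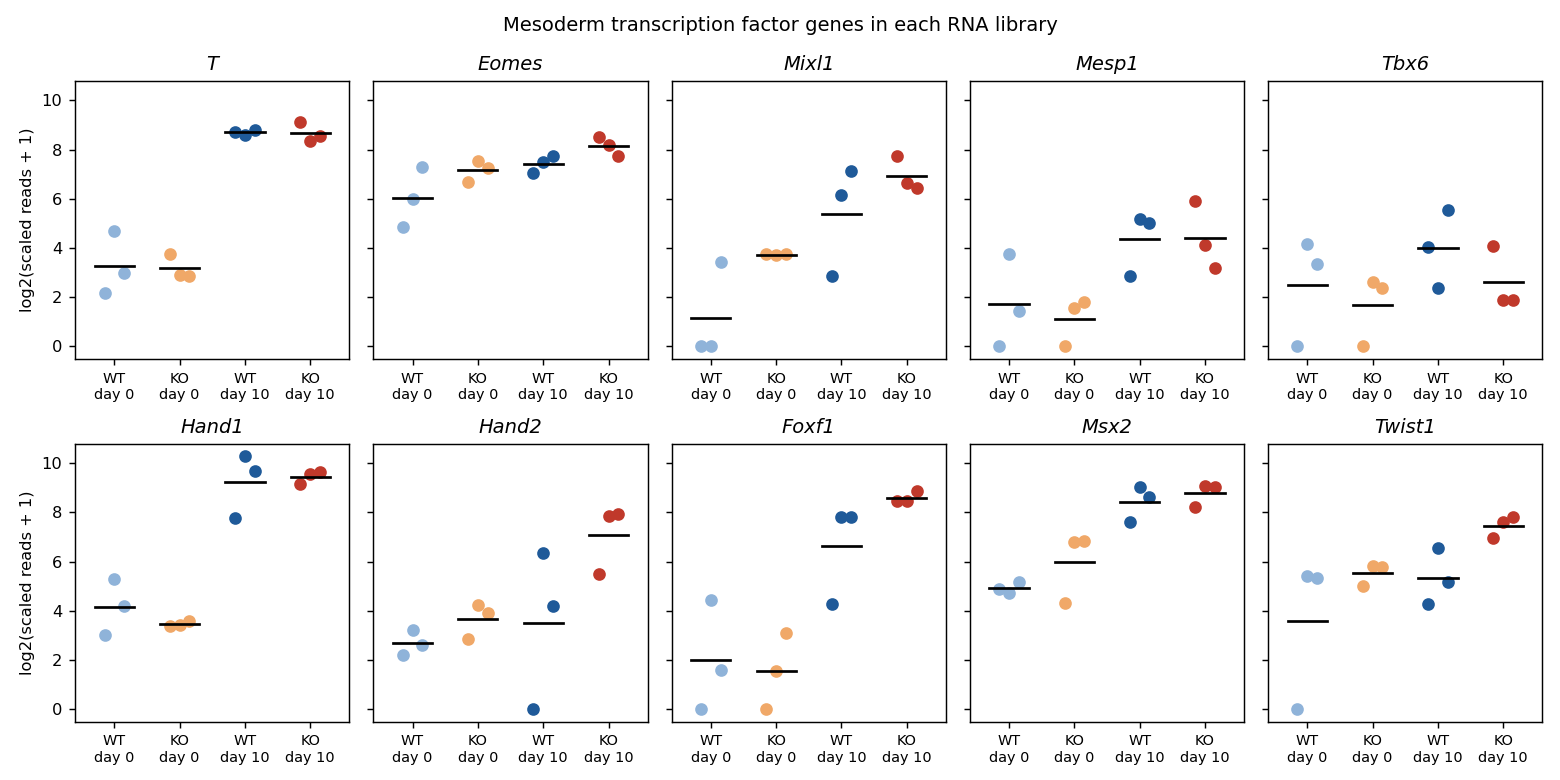
Log2(scaled reads + 1) of the 10 genes in every RNA library (points, 3 per group) with the mean of the log2 values (bar) for WT and KO at day 0 and day 10. T, Hand1 and Msx2 are separated by day in both lines. Eomes, Mixl1, Mesp1, Hand2, Foxf1 and Twist1 are separated by day only among the KO libraries, and Tbx6 in neither line.

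T (Brachyury, chr17:8627288-8635361, + strand, mm9), the T-box activator of posterior mesoderm and notochord, was at 3.54, 25.1 and 6.83 scaled reads in the 3 WT libraries of day 0 and at 12.5, 6.51 and 6.18 in KO. By day 10 T stood at 423, 385 and 439.8 in WT, against 559, 323 and 375 in KO. Every day 10 library stood more than 10 times above every day 0 library, and at day 10 the ranges of the lines overlapped. T rose by 5.42 ± 0.59 (SE) on the log2 scale in WT (42.7-fold, limma adjusted p = 1.7e-04) and by 5.51 ± 0.59 in KO (45.5-fold, limma adjusted p = 2.0e-04). The call held in both lines in each of 25 alternative settings.

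Eomes (chr9:118387307-118395250, + strand), a T-box factor of the streak that also acts in trophoblast, was already transcribed at day 0. It was at 28.3, 62.6 and 155 scaled reads in WT, against 102.7, 182 and 152 in KO. On day 10 Eomes reached 129.7, 181 and 216 in WT, against 361, 287 and 216 in KO. The days overlapped in WT and were separate in KO, but the changes of 1.38 ± 0.51 (WT) and 0.99 ± 0.51 (KO) missed the threshold (limma adjusted p = 0.171 and 0.192). With a depth term both passed (limma adjusted p = 0.0201 in WT, 0.0275 in KO), as did KO with DESeq2 (adjusted p = 0.0336) and WT without the deep WT library of day 0 (log2 2.00, adjusted p = 0.0357) or among shallow libraries only (adjusted p = 0.0320). Mixl1 (chr1:182623179-182627165, - strand), a homeobox factor of the streak, had no read in 2 of the 3 WT libraries of day 0 and 9.68 scaled reads in the third. In KO it was at 12.5, 12.1 and 12.4. The day 10 values of Mixl1 were 6.18, 70.01 and 138 in WT, against 214, 98.6 and 86.3 in KO. WT replicate 1 of day 10 thus lay below the deep WT library of day 0. Mixl1 rose by 4.23 ± 1.11 in WT (limma adjusted p = 0.0453). The call was lost in 14 of 25 settings, among them leaving out either shallow WT library of day 0 (adjusted p = 0.116 without replicate 1 and 0.147 without replicate 2), WT day 10 replicate 2 (0.170) or replicate 3 (0.106). In KO its change was 3.21 ± 1.11 (limma adjusted p = 0.0771), without overlap of the days, and it passed in 7 of 25 settings, among them edgeR (adjusted p = 0.0483), DESeq2 (0.00177) and leaving out WT day 10 replicate 1 (0.0439) or replicate 3 (0.0388).

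Mesp1 (chr7:86937127-86938476, - strand), which marks the first cardiac progenitors, stayed below 13 scaled reads at day 0, at 0, 12.5 and 1.71 in WT, against 0, 1.95 and 2.47 in KO. It was at 6.18, 35.0 and 31.6 in WT, against 59.5, 16.4 and 8.09 in KO at day 10. The group totals of day 10 were 30 reads in WT, against 24 in KO. Its log2 changes of 2.62 ± 1.16 and 3.29 ± 1.16 missed the threshold (limma adjusted p = 0.268 and 0.0799), though the KO change passed in 3 of 25 settings, with DESeq2 (adjusted p = 0.00608), only the compared groups (0.0463) and without WT day 10 replicate 3 (0.0484). Tbx6 (chr7:133924997-133929062, + strand), the paraxial mesoderm factor, showed no separation by day in either line. It read 0, 16.7 and 9.11 in WT, against 0, 5.21 and 4.12 in KO at day 0, then 15.4, 4.12 and 46.0 in WT, against 15.9, 2.74 and 2.70 in KO at day 10. In KO at day 10 these levels rest on 6 reads over 3 libraries. Its highest value came from the day 10 WT library with background reads, and the part of those reads was not tested. The log2 change was 1.49 ± 1.27 in WT, against 0.96 ± 1.27 in KO (limma adjusted p = 0.630 and 0.607).

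Hand1 (chr11:57642215-57645649, - strand), a basic helix-loop-helix factor of extraembryonic mesoderm, heart and trophoblast, had the highest day 10 level of the 10 genes per kilobase of gene span, 221 ± 149 scaled reads per kb in WT, against 205 ± 35.3 in KO (SD, n = 3 each). It was at 7.07, 37.6 and 17.4 scaled reads in WT, against 9.34, 9.77 and 11.1 in KO at day 0. By day 10 Hand1 stood at 219, 1237 and 825 in WT, against 567, 747 and 798 in KO. The days were far apart in both lines, and WT replicate 1 of day 10 was the lowest of the 6 day 10 libraries. Hand1 rose by 5.09 ± 0.63 in WT (34.0-fold, limma adjusted p = 4.9e-04) and by 5.98 ± 0.63 in KO (63.1-fold, limma adjusted p = 2.0e-04), in every one of the 25 settings.

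Hand2 (chr8:59799780-59803314, + strand), its relative of heart and limb, was not separated by day among the WT libraries. It was at 3.54, 8.35 and 5.12 scaled reads in WT, against 6.23, 17.6 and 14.01 in KO at day 0. The day 10 values of Hand2 were 0, 80.3 and 17.3 in WT, against 43.6, 227 and 240.0 in KO. All KO libraries of day 10 lay above those of day 0, whereas the WT library without a read at day 10 lay below the WT range of day 0. The log2 change was 0.84 ± 1.26 in WT, against 3.42 ± 1.26 in KO, with limma adjusted p = 0.816 and 0.0903, and without WT day 10 replicate 2 the WT change turned to -0.58. The KO change passed in 4 of 25 settings, with edgeR (adjusted p = 0.0483), DESeq2 (7.97e-04), only the compared groups (0.0228) and without WT day 10 replicate 1 (0.0311). Foxf1 (chr8:123608286-123612054, + strand), a forkhead factor of lateral, splanchnic and extraembryonic mesoderm, was at 0, 20.9 and 1.99 in WT, against 0, 1.95 and 7.42 in KO at day 0. On day 10 Foxf1 was at 18.5, 222 and 221 in WT, against 349, 353 and 461 in KO. WT replicate 2 of day 0 overlapped WT replicate 1 of day 10, and the KO libraries of the 2 days were separate. Foxf1 rose by 4.62 ± 1.18 in WT (24.6-fold, limma adjusted p = 0.0390) and by 7.05 ± 1.18 in KO (132-fold, limma adjusted p = 0.00528). The WT call was lost in 11 of 25 settings, with adjusted p between 0.0883 and 0.168 when WT replicate 1 or 3 of day 0 or replicate 2 or 3 of day 10 was left out. The KO call was lost only among the 9 shallow libraries (log2 8.59, adjusted p = 0.0658), where KO day 0 is 1 library.

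Msx2 (chr13:53562250-53568149, - strand), a homeobox repressor induced by BMP, was at 28.3, 25.1 and 35.3 scaled reads in WT at day 0. In KO at day 0 it was at 18.7 in the shallow library and at 109 and 113 in the 2 deep libraries. Msx2 stood on day 10 at 195, 527 and 397 in WT, against 298, 531 and 529 in KO. Both lines were separated by day. Msx2 rose by 3.51 ± 0.61 in WT (11.4-fold, limma adjusted p = 0.00438) and by 2.80 ± 0.61 in KO (6.98-fold, limma adjusted p = 0.0184). The KO call was lost without KO day 10 replicate 2 (adjusted p = 0.0789) or replicate 3 (0.0894).

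Twist1 (chr12:34642536-34644696, + strand), a basic helix-loop-helix factor of mesenchyme, had a measurable level at day 0, 41.8 and 39.3 scaled reads in WT libraries 2 and 3 and 31.1, 54.7 and 54.4 in KO, but no read in WT replicate 1. Twist1 values of day 10 were 18.5, 92.7 and 34.5 in WT, against 122.97, 194 and 221 in KO. The WT ranges of the 2 days overlapped, and every KO library of day 10 exceeded every other library of the data. Its change was 1.75 ± 1.12 in WT, against 1.92 ± 1.12 in KO (limma adjusted p = 0.489 and 0.237). In KO it passed with DESeq2 (adjusted p = 0.0112) and with only the compared groups (0.0204). Without WT day 0 replicate 1, the library with no read, the WT change was -0.05.

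**Figure D2:**
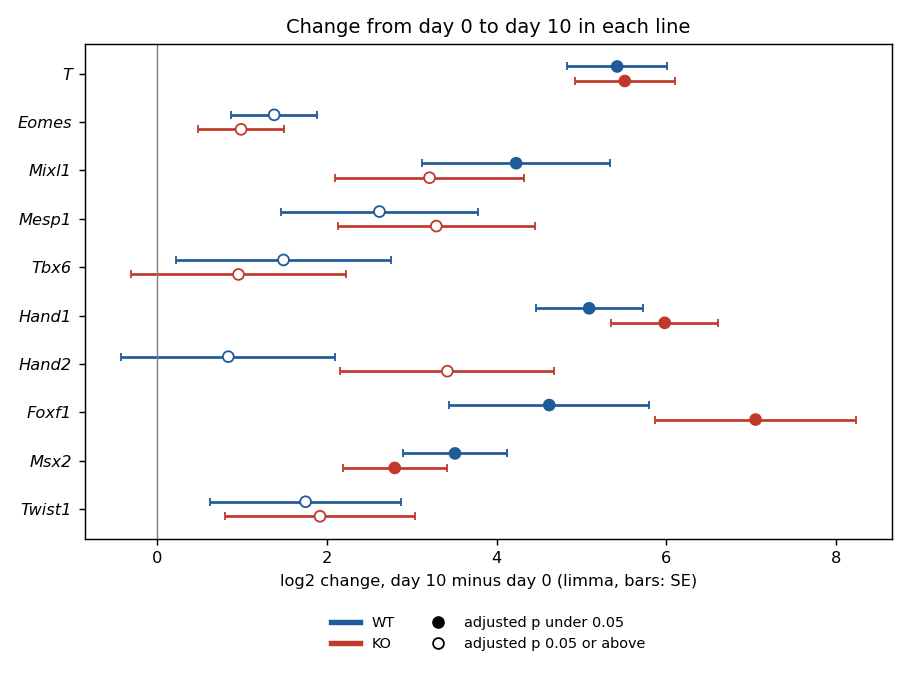
Log2 change from day 0 to day 10 (limma, with SE) of each gene in WT and KO. T, Hand1, Foxf1 and Msx2 passed in both lines (filled points) and Mixl1 in WT; the smallest change is that of Hand2 in WT, 0.84.

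The change over 10 days was then compared between the lines by the interaction term, change in KO minus change in WT. No member passed with limma (0 of 10, 0% of all genes in either direction, and 0 members at unadjusted p under 0.05), nor with edgeR or DESeq2. The differences with the largest size were 2.58 ± 1.79 for Hand2 and 2.43 ± 1.66 for Foxf1 (limma adjusted p = 0.679 and 0.677). That of Hand2 was 0.82 without WT day 10 replicate 1 and 4.00 without replicate 2. For Mixl1, whose call in each line depends on the setting, the difference was -1.02 ± 1.57 (limma adjusted p = 0.875).

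Knockout and WT were next compared at each day. At day 0 no member passed (limma, 0 of 10, 0% of all genes in either direction), and neither edgeR nor DESeq2 called one; over all genes edgeR called 0 and DESeq2 15. At unadjusted p under 0.05 there were 788 genes, among them Mixl1, higher in KO by 2.59 ± 1.11, and Eomes, by 1.11 ± 0.51 (limma adjusted p = 0.993 for both). Mixl1 was also the 1 member of 10 whose KO libraries all exceeded the WT libraries (5.50% of all genes), and none lay wholly below them (4.98%). Its 2 WT libraries without a read were both shallow, where 1 read is worth 3.54 and 4.18 scaled reads. Within the 3 deep libraries of day 0 (1 WT, 2 KO) the KO minus WT difference of Mixl1 was 0.31 on the log2 scale, and within the 3 shallow ones (2 WT, 1 KO) it was 3.75. Eomes had 0.11 among deep and 1.26 among shallow libraries. Msx2 turned sign, from 1.63 among deep to -0.49 among shallow libraries, and Twist1 had 0.46 and 2.30. These within-depth values come from 1 library on one side and have no test.

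At day 10 again no member passed between the lines (limma, 0 of 10, with 0 genes called in all and 2462 at unadjusted p under 0.05). edgeR called 0 genes and DESeq2 558, no member among them. The fitted level was higher in KO for 8 of 10 members, with a median of 0.53 on the log2 scale beside -0.26 over all genes. The share of all genes higher in KO was not counted. The exceptions were T, whose sign turned under RLE and TMM scaling, and Tbx6. This count depends on single libraries: without WT day 10 replicate 1 Mesp1 turned to -0.69, Hand1 to -0.54 and Msx2 to -0.06. Hand1 was also below 0 with edgeR (-0.02) and DESeq2 (-0.01). For Eomes, Foxf1 and Twist1 the 3 KO libraries all exceeded the 3 WT libraries (3 of 10; 5.54% of all genes did so), and for none did all lie below (12.6%). With 3 libraries against 3 the exact permutation test cannot give a p below 0.1, 2-sided, and it gave 0.1 for each of these genes. Eomes had a mean of 175 ± 43.2 scaled reads in WT, against 288 ± 72.6 in KO (log2 difference 0.71 ± 0.51, limma adjusted p = 0.602). Foxf1 had 154 ± 117 and 388 ± 63.5 (1.96 ± 1.18, adjusted p = 0.511), and Twist1 had 48.6 ± 39.0 and 180 ± 50.7 (2.12 ± 1.12, adjusted p = 0.456). Without WT replicate 1 of day 10 the difference of Foxf1 was 0.79. Errors of means are SD with n = 3 and errors of differences are SE.

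Hand2 had the largest log2 difference at day 10. Its means were 32.5 ± 42.3 scaled reads in WT, against 170 ± 110 in KO (SD, n = 3 each), a ratio of means of 5.24. The difference of its mean log2 values was 3.56 ± 1.26 (11.8-fold). Hand2 was the only member at an unadjusted limma p under 0.05 (limma adjusted p = 0.288). WT replicate 2 overlapped the KO range, and the difference was 1.81 without WT replicate 1, the library with no read, and 4.98 without WT replicate 2 (limma adjusted p = 0.356 and 0.144). In the authors' deposited table the same comparison has a log2 ratio of 2.45 and p = 0.0119 for Hand2, 1.97 and 0.00282 for Twist1, and 1.47 and 0.0171 for Foxf1. Those p-values are as deposited, with no adjustment for the number of genes stated there. T and Hand1 had differences near 0, -0.03 with a 95% interval of -1.29 to 1.24 and 0.20 with an interval of -1.16 to 1.55, so changes of about 2-fold in either direction lie within the error. Msx2 (0.34), Mesp1 (0.06) and Mixl1 (1.57) had intervals that include 0, as did Tbx6, at -1.36 the lowest of the 10.

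**Figure D3:**
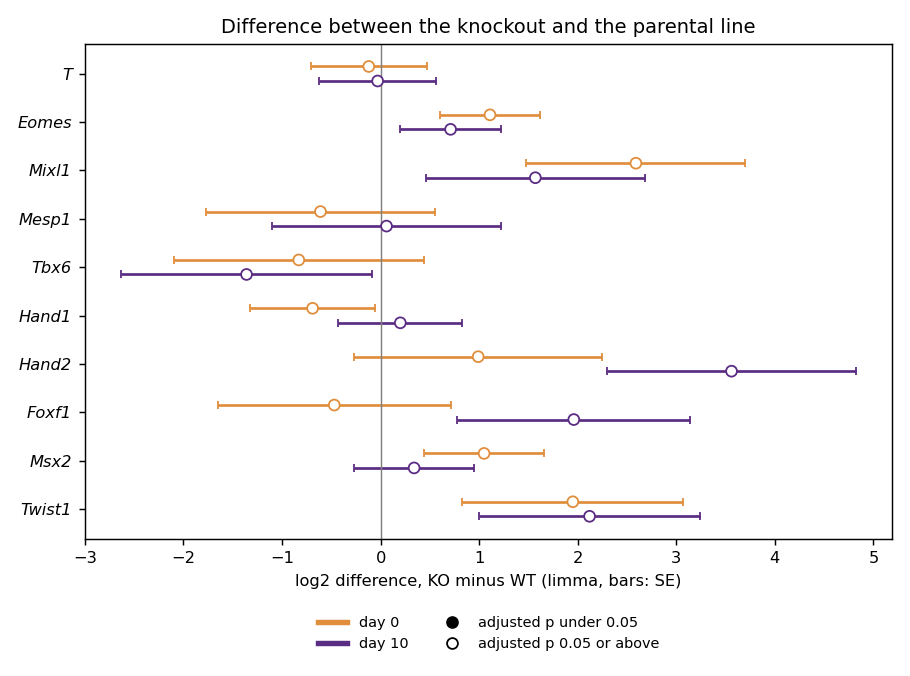
Log2 difference KO minus WT (limma, with SE) of each gene at day 0 and day 10. All points are open, since no gene passed at either day; Hand2 at day 10 lies farthest from 0, at 3.56.

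The order of the day 10 levels was compared per kilobase of gene span, since exons and introns are counted together. In WT it ran from Hand1 at 221 ± 149 scaled reads per kb to Msx2 (63.2 ± 28.4), T (51.5 ± 3.47) and Foxf1 (40.9 ± 31.2), then Twist1 (22.5 ± 18.1), Eomes (22.1 ± 5.44), Mesp1 (18.0 ± 11.7), Mixl1 (17.9 ± 16.5), Hand2 (9.20 ± 12.0) and Tbx6 (5.38 ± 5.33). In KO Hand1 was again first at 205 ± 35.3, followed by Foxf1 (103 ± 16.9), Twist1 (83.1 ± 23.5), Msx2 (76.7 ± 22.7), T (51.9 ± 15.4), Hand2 (48.2 ± 31.1), Eomes (36.3 ± 9.14), Mixl1 (33.4 ± 17.7), Mesp1 (20.8 ± 20.5) and Tbx6 (1.75 ± 1.87; SD, n = 3 for all). From Msx2 down in WT, neighbours in the order differed by less than the larger of their SDs. In KO the same held except between Hand1 and Foxf1 and between Msx2 and T. The WT libraries of day 10 were uneven: replicate 1 was the lowest of the 3 for 8 of 10 members, and the summed level of all 10 was 1031, 2835 and 2366 scaled reads in its 3 libraries against 2590, 2782 and 2937 in KO.

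Across the 12 libraries the members that rose in both lines varied together. Pearson's r of their log2 values ran from 0.83 (T with Msx2) to 0.97 (T with Hand1), with 0.95 for Hand1 with Foxf1. This was not particular to them: Mesp1, which passed in neither line, had r = 0.84 with T, 0.87 with Hand1, 0.91 with Foxf1 and 0.75 with Msx2. Eomes and Mixl1 had r = 0.91, and Hand2 with Twist1 had r = 0.72 and the highest rank correlation of all pairs (Spearman's rho 0.93). Tbx6 stood apart, with r from -0.09 (Hand2) to 0.68 (Mesp1). These are descriptions over 12 libraries that pool the 2 days and differ in depth. Genes taken for a rise between the days have a high r over both days by that choice. No correlation within a day was computed, here or for the genes named next. Among 14731 genes with a mean of at least 20 scaled reads, those most like T were Alox15 (r = 0.979), Igf2 (0.977) and Fam115a (0.974). Arid3b (0.987), Amot (0.983) and Mogat2 (0.975) were most like Hand1. For Twist1 they were Hey2 (0.913), Nat9 (0.908) and Lrrc3 (0.884).

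The other genes of the program were read from fixed lists. Among 34 ligands, receptors and effectors of NODAL, BMP, WNT and FGF signaling 9 rose and 3 fell in WT (limma), and 8 rose and 2 fell in KO. For this list and those below, the shares over all genes were 2.02% rising and 2.40% falling in WT. In KO they were 2.43% and 6.46%. The largest rises in WT were those of Wnt5a (5.75 ± 1.18), Fgf8 (5.54 ± 0.87), Fgf5 (4.87 ± 0.87) and Wnt3 (4.03 ± 0.57), and Fgf8 (5.62 ± 0.87), Wnt5a (5.23 ± 1.18), Bmp2 (3.67 ± 0.73) and Wnt3 (3.62 ± 0.57) led in KO. Fgf4 and Tdgf1, which pluripotent cells express, fell in both lines. The list's median was 0.44 in WT, against 0.52 in KO.

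Of 20 other streak and paraxial factors 4 rose and 1 fell in WT, and 3 rose in KO. Cdx2, a posterior homeobox factor that also defines trophoblast, rose by 7.41 ± 0.84 and 5.68 ± 0.84, and Evx1, a homeobox factor of the posterior streak, by 4.14 ± 0.61 and 3.93 ± 0.61 in WT and KO. Of 26 other lateral and cardiac factors 4 rose and 1 fell in WT, while 6 rose in KO, and Msx1, the paralog of Msx2, rose by 4.72 ± 1.06 and 5.72 ± 1.06. Among 26 mesoderm targets and surface genes 5 rose in WT, with 8 rising in KO. They included Aplnr, a receptor of nascent mesoderm (5.36 ± 1.11 and 5.48 ± 1.11), and Tagln, an actin-binding protein of smooth muscle (4.08 ± 0.51 and 4.38 ± 0.51). Acta2 (4.25 ± 0.82) and Actc1 (4.90 ± 1.16), smooth and cardiac muscle actins, passed in KO. The medians of the last 3 lists in WT and KO were 0.38 and 0.25, 1.36 and 1.08, and 1.51 and 1.5, beside -0.20 and -0.68 over all genes. Between KO and WT no gene of these 4 lists passed at either day.

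Some members also act outside mesoderm, so markers of other cells were read in the same libraries. Of 11 trophoblast markers 4 rose in both lines, Cdx2, Gata3, Krt8 and Krt18. Their list summed to 713.0 to 1089 scaled reads over the 6 day 0 libraries. At day 10 the sum was 12941, 9189 and 3972 in WT, against 6712, 9747 and 8373 in KO. The largest parts of these sums were Krt18 (mean 4537 in WT, 3938 in KO) and Krt8 (3061 and 3175). Of the 11 markers 5 in WT and 6 in KO had a higher fitted level at day 10 than at day 0. The list's median change was -0.20 in WT and 0.74 in KO. The trophoblast genes Prl3d1, Tpbpa and Ctsq were at 0 in all KO libraries of day 10, and Ctsq also in all WT libraries. The part of such cells in the levels of Hand1 and Eomes was not tested. Of 12 endoderm markers 1 rose in each line, and their median change was 1.06 in WT and -0.39 in KO. Their sum at day 10 was 583.6, 1091 and 1886 in WT, against 670.4, 881.7 and 1143 in KO. Of 10 neuroectoderm markers 0 rose and 1 fell in each line, with a median of -0.59 in WT and -1.26 in KO. The part of endoderm cells in the levels of Eomes and Mixl1 was not tested either.

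Of 16 fibroblast markers, genes of a cell type used as feeder layer, 1 fell in WT (Thy1), and 2 rose and 2 fell in KO. Over all genes 2.40% fell in WT, and 2.43% rose and 6.46% fell in KO. Their sum at day 0 was highest in the first library of each line (9754 for WT and 4156 for KO, against 1418 to 1950 in the other 4). Twist1, a mesenchymal gene, was at 0 in that WT library. At day 10 the sums were 2196, 6743 and 4007 in WT, against 3745, 8973 and 9630 in KO, and in both lines the library with the lowest sum also had the lowest Hand2 and Twist1. Dcn and Fap, fibroblast markers, were at 0 in all 3 KO libraries of day 10, while Col1a1 was at 1880, 5033 and 5302 there. The part of such cells in the KO levels of Hand2 and Twist1 was not tested.

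H3K9ac was read as the authors' deposited peaks within 1 kb of a gene start. In WT at day 0 6 of 10 members had such a peak (Eomes, Mixl1, Mesp1, Hand1, Foxf1 and Msx2), as had 49.7% of all genes. In KO at day 0 the count was 1 of 10 (Msx2), and 40.0% of all genes. At day 10 there were 6 in WT (Eomes, Mixl1, Tbx6, Hand1, Foxf1 and Msx2; 50.8% of all genes) and 5 in KO (T, Eomes, Mixl1, Hand1 and Msx2; 52.1%). Twist1 and Hand2 had none in any sample. With 1 sample per line and day there is no test, and the lists differ in length (63050, 37704, 37310 and 51501 peaks for WT day 0, KO day 0, WT day 10 and KO day 10).

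The fold enrichment of the members' promoter peaks, the authors' value per peak, was 2.23 to 3.56, and none had a -log10 q of 5 or more. Their -log10 q ran from 0.00 (T in KO at day 10) to 1.75 (Msx2 in KO at day 10). Ranked among the promoter peaks of its own sample, Eomes in WT at day 0 was high (chr9:118386388-118386730, 3.55-fold, percentile 84.1, sample median 2.86). All other member peaks lay below their sample's median, at percentiles 2.16 (Msx2, KO at day 0) to 43.4 (Foxf1, WT at day 0). They include Mixl1 in WT at day 10 (chr1:182626369-182627211, 3.56-fold, percentile 40.9) and Msx2 in KO at day 10 (chr13:53565217-53568633, 3.52-fold, percentile 42.7). T, transcribed in both lines at day 10, had its 1 promoter peak in KO at day 10 (chr17:8626279-8627637), at 2.23-fold with a -log10 p of 2.06, close to the lowest value of 2.01 listed for that sample. Among the KO day 10 promoter peaks 3.22% were as weak or weaker. A window of 2 kb gave 8 members in KO at day 10, adding Tbx6, Hand2 and Foxf1, and 7 in WT at day 0. Since weaker peaks are not listed, a missing peak gives no bound on acetylation. Of the 5 genes that rose in WT, 4 had a listed promoter peak there at day 0 (Mixl1, Hand1, Foxf1 and Msx2), and T had none at either day. In that sample, with the longest peak list, 49.7% of all genes had one. Of the 4 genes that rose in KO, only Msx2 had a listed promoter peak in KO at day 0 (-log10 q 0.04), where 40.0% of all genes had one. Msx2 was the only member with a peak in all 4 samples.

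**Figure D4:**
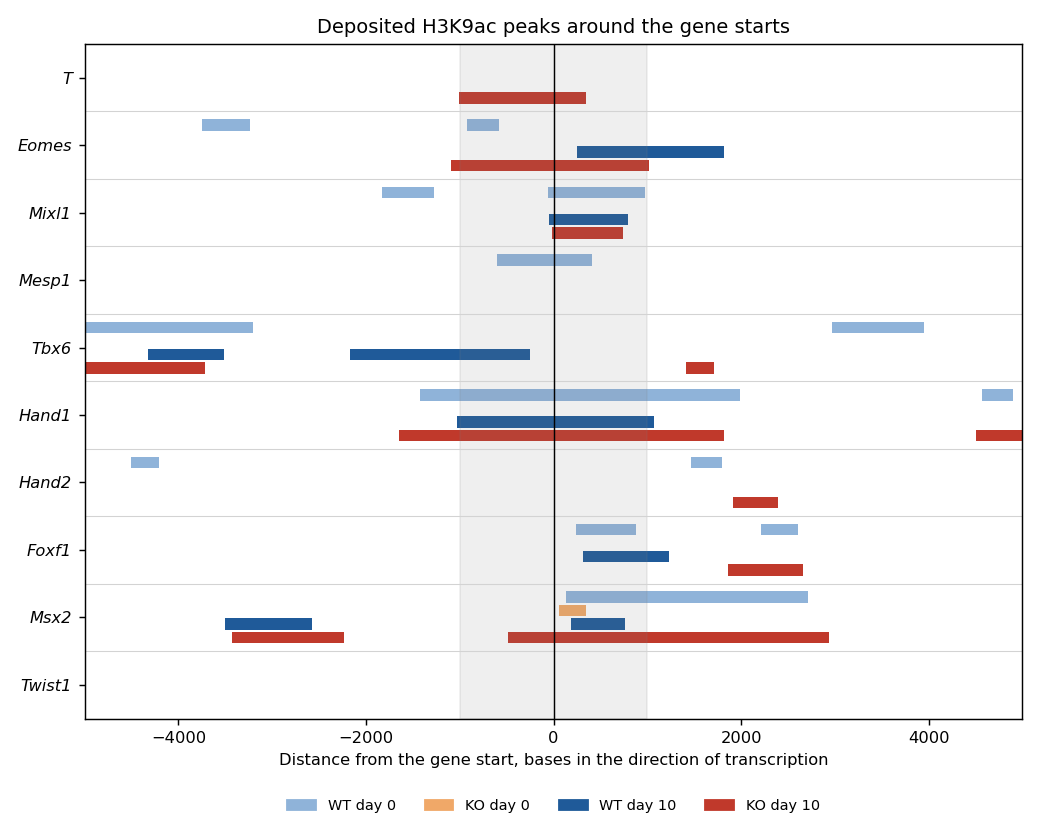
Deposited H3K9ac peaks within 5 kb of each gene start, by distance in the direction of transcription, for WT and KO at day 0 and day 10 (1 sample each); the grey band is 1 kb either side. KO at day 0 has 1 peak in the band, at Msx2, and Twist1 has none.

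Reads that could be assigned to the mus or cas allele were counted for 9 of the 10 genes; Twist1 had none. Summed over 12 libraries, 4 members were read almost only from mus. T had a mus share of 99.5% (423 allelic reads, Wilson 95% interval 98.3 to 99.9), Hand1 98.9% (528 reads, 97.5 to 99.5), Foxf1 100% (111 reads, 96.7 to 100) and Mixl1 98.1% (53 reads, 90.1 to 99.7). Genes within 5 Mb of them with at least 100 allelic reads had median mus shares of 97.6 to 99.2%, and over all 13785 such genes 61.2% had a mus share above 90%. The shares of these 4 genes thus lay at the level of their chromosome regions. These intervals and others on reads cover counting error only.

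**Figure D5:**
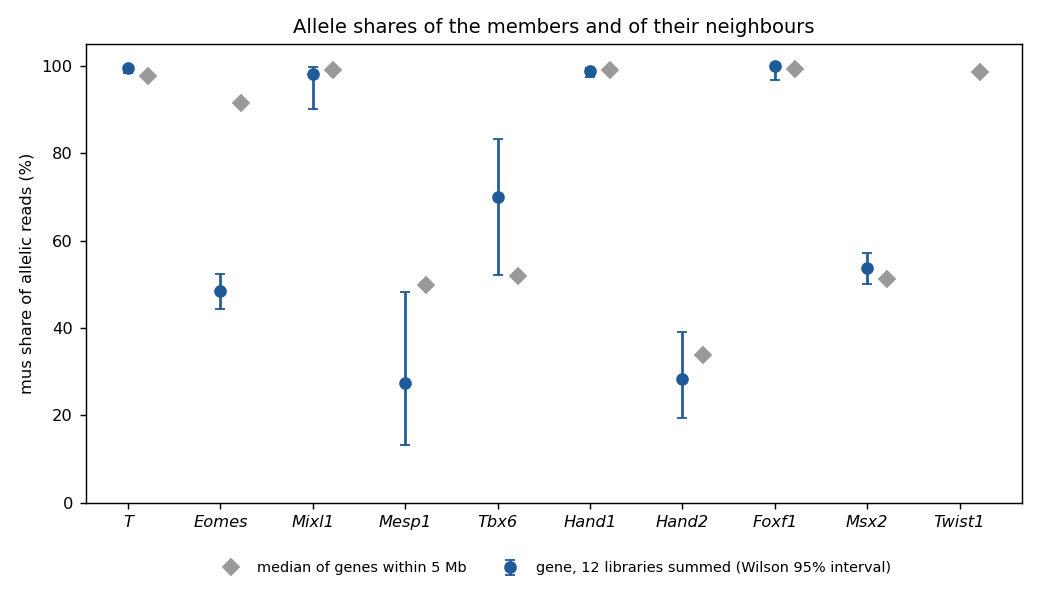
Mus share of allelic reads of each gene over 12 libraries (circles, Wilson 95% interval) and the median share of genes within 5 Mb (diamonds). T, Mixl1, Hand1 and Foxf1 lie near 100% together with their neighbours, Eomes at 48.4% lies below its neighbours' median of 91.6%, and Twist1 has no allelic read.

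The other 5 members had reads from both alleles. Msx2 had 53.6% mus (758 reads, 50 to 57.1), close to its neighbours' median of 51.2%, Hand2 28.2% (78 reads, 19.4 to 39.0; neighbours 33.9%), Tbx6 70% (30 reads, 52.1 to 83.3; neighbours 51.8%) and Mesp1 27.3% (22 reads, 13.2 to 48.2; neighbours 49.8%). Eomes had 48.4% (597 reads, 44.4 to 52.4) in a region where 36 of 71 neighbours were above 90% and 32 between 30 and 70%. By group the mus share of Eomes was 35.9% (28.8 to 43.7) in WT, against 46.2% (40.5 to 52.0) in KO at day 0, and 68.7% (56.8 to 78.5) in WT, against 62.8% (52.2 to 72.3) in KO at day 10. Of the 156 WT reads of day 0, 155 came from the deep library, and by library the shares of the 2 days overlapped. The shallow KO library of day 0 had 66.7% (18 reads) and the deep libraries of day 0 36.1 to 45.3%, against 50 to 83.3% in the day 10 libraries, all shallow. Depth class thus moved with day, and its part in these shares was not tested. For Msx2 the shares were 66.7% (54.1 to 77.3) in WT, against 57.6% (51.9 to 63.2) in KO at day 0, then 46.8% (39.9 to 53.9) and 50.5% (43.9 to 57.0) at day 10. By library they overlapped between the days, at 53.9 to 64.3% in the 3 deep libraries of day 0 and 30.2 to 66.7% at day 10. These pooled shares carry no test over libraries.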

How the data were processed

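RNA and H3K9ac ChIP samples of both lines at day 0 and day 10 entered this work. H3K9me2 samples were not analysed here, and 2 inputs whose labels name different days were left unassigned. Per the submitters' processing notes, TopHat and HOMER were used for RNA and Novoalign and MACS2 for ChIP, on mm9; versions, strand and treatment of multiply mapped reads are not given in the sources used here.

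The authors deposited a gene table whose values are a signal, reads per gene span scaled to about 8689193 per library. The same table gives the authors' log2 ratio and p-value for each comparison. In a further table the authors give counts of mus and cas reads per gene. Per the file headers, peaks carry a fold enrichment (a ratio), a -log10 p and a -log10 q. Whole reads were recovered from the signal (100.00% of values whole within 0.006). Gene length equaled the genomic span in 99.28% of genes. Of the value columns, 0 belonged to samples not listed.

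The main test was limma 3.58.1 in R 4.3.3 on log2(value + 1), with trend and robust options and all 12 libraries, over 20624 genes above 1 in at least 3 libraries, with Benjamini-Hochberg adjustment. All 10 members passed this filter. The design had named counts for the main test, but the unit required limma; edgeR 4.0.16 (which kept 9 members) and DESeq2 1.42.0 were run on recovered reads. Fits were tested on simulated data. Group means were compared by exact permutation. Python 3.11.15, numpy 2.4.6, pandas 2.3.3, scipy 1.17.1 and matplotlib 3.10.9 did the rest. Within-group correlations of log2 values were 0.816 to 0.993, and correlations gave no sign of pairing by replicate number.

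The members and gene lists were chosen with earlier results of these data known. Named are the members, up to 4 passing genes of a list, the target gene and the 3 genes most like T, Hand1 and Twist1; not all are printed. Alternatives were other scalings, pseudocounts, filters, tools, a depth term, a replicate block, left-out libraries, peak windows and read minimums. A fit on the 9 shallow libraries was chosen after seeing the data.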

Additional observations from a re-analysis of the deposited data

How the results depend on the processing

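T and Hand1 rose in both lines under all alternatives tried, and no member passed between KO and WT under any. Members called from day 0 to day 10 numbered 5 in WT and 4 in KO, with 3 in WT when no filter was used or only the compared groups were fitted, and with 8 (compared groups only) and 9 (DESeq2) in KO. Leaving out 1 library gave 3 to 5 in WT and 3 to 6 in KO.

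All genes called, 911 in WT and 1834 in KO, moved more: 396 and 4105 with only the compared groups, 1514 and 3012 with a depth term, 2141 and 5409 without the 2 libraries with background reads, 2169 and 3577 without both first libraries of day 0, 1823 and 3350 with DESeq2, and 566 and 130 among shallow libraries. In KO there were also 1054 with a pseudocount of 5 and 1046 with edgeR. Leaving out 1 library gave 466 to 1389 in WT and 199 to 4496 in KO. Between the lines 0 genes passed. DESeq2 called 15 at day 0, 558 at day 10 and 144 for the interaction. At day 10 there were 111 with a pseudocount of 0.1, 41 with a depth term, 4 with only the compared groups and 1 without both first libraries of day 0, and leaving out 1 library gave 0 to 1 at either day. RLE scaling moved the median of all genes from -0.20 to -0.01 in WT and from -0.68 to -0.41 in KO.

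Signs that turned belonged to changes that had not passed. Between the lines at day 10, T had 0.05 (RLE), 0.02 (TMM), 0.01 (without the background libraries), 0.09 (edgeR) and 0.10 (DESeq2), and Hand1 -0.02 (edgeR) and -0.01 (DESeq2). At day 0, T had 0.13 (depth term) and 0.31 (shallow), Msx2 -0.49 (shallow), and without the background libraries Tbx6 0.00 and Foxf1 0.31. From day 0 to day 10 in WT, Hand2 had -0.07 (pseudocount 0.1) and Twist1 -0.05 (without both first libraries). For the interaction, Twist1 had -0.89 (pseudocount 0.1), -0.18 (without the background libraries) and -0.17 (shallow), Mixl1 0.10 (pseudocount 5), T -0.20 (depth term) and -0.33 (shallow), Eomes 0.08 (depth term) and 0.02 (DESeq2), Tbx6 0.71 and Msx2 0.83 (shallow). With 1 library left out the values that crossed 0 ran from -0.58 to 2.59 (Hand2) and -0.05 to 2.66 (Twist1) for WT day 10 against day 0; from -0.67 to 0.59 (T), -1.48 to 0.40 (Mesp1), -2.08 to 0.00 (Tbx6) and -1.47 to 0.75 (Foxf1) for KO against WT at day 0; from -0.25 to 0.14 (T), -0.69 to 0.67 (Mesp1), -0.54 to 0.71 (Hand1) and -0.06 to 0.65 (Msx2) at day 10; and from -0.62 to 0.64 (T), -1.01 to 0.19 (Eomes), -0.34 to 1.54 (Mesp1), -1.36 to 0.72 (Tbx6) and -0.74 to 1.97 (Twist1) for the interaction. The cause was not tested.

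Correlations gave no sign of pairing by replicate number. Deviations of same-numbered libraries correlated between -0.58 and 0.58, over 0.1 in 4 of 18 pairs, and those of differently numbered libraries in 11 of 36. WT replicate 3 and KO replicate 2 of day 0, both deep, had 0.60. Whether same-numbered libraries share a culture cannot be told from this check. With a replicate block 5 members passed in WT, 4 in KO and 0 between the lines, and 850 and 1612 genes from day 0 to day 10. With peaks of -log10 q of 5 or more 0 members had a promoter peak in each sample, and a 2 kb window gave 8 in KO at day 10. A minimum of 20 allelic reads left 5 members with a share in a library. Depth limits the low genes: 1 read is worth 2.06 to 4.18 scaled reads in the 9 shallow libraries.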
